A study of Mus musculus with 4 samples.

Results

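The regions described here are 642 large spans of the mouse genome that lacked H2A.Z peaks in the livers of both genotypes. They were selected on the H2A.Z ChIPseq peaks themselves. The WT and Uhrf1hepKO peaks of chromosomes 1 to 19 were pooled and sorted by start, and a stretch of 500 kb or more between the end of a pooled peak and the start of the next was kept. This left 642 of 60036 gaps between pooled peaks, and together they covered 522 Mb, or 21.2% of the length of these chromosomes. Because H2A.Z peaks chose the spans, the absence of H2A.Z from them is their definition and not a finding. The genes, the sequence and the ATACseq peaks inside them were not used in the choice.

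The WT liver came from a Uhrf1-fl/fl mouse and the Uhrf1hepKO liver from a Uhrf1-fl/fl;Alb:Cre mouse, so both mice carried the floxed alleles and Cre was driven in hepatocytes. Both were C57Bl/6 males, 8 to 12 weeks old. Whole liver was used, which also holds cells in which Alb:Cre is not active. The same 2 livers gave 4 libraries, 1 ATACseq and 1 H2A.Z library per genotype, so there was no replicate error, no test between genotypes was possible, and the Wilson 95% intervals given with shares cover counting error only.

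H2A.Z is a variant of histone H2A that is placed in nucleosomes beside transcription start sites (TSSs) and at enhancers, and it is usually found where DNA is unmethylated. ATACseq marks DNA that the Tn5 transposase can reach, which in most tissues means promoters, enhancers and insulator sites. UHRF1 brings the maintenance DNA methyltransferase to newly replicated DNA, and much of the mouse genome between genes consists of transposon-derived repeats that are kept methylated.

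The sequences below are the ATACseq peaks on which the results turn, taken from GRCm38 on the plus strand. The 4 printed first had the highest folds over the local background among the in-span peaks that were found in both livers and could be printed. In the peak on chromosome 13, capitals mark CpG dinucleotides. In the other three of this set, capitals mark the bases that differ from the mouse mitochondrial genome, and the peak on chromosome 12 is shown by its central 300 bp.
chr13:77438911-77439056: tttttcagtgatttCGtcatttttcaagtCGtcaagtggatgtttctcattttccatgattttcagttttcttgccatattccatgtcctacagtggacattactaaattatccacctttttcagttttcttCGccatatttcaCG
chr5:60042844-60043086: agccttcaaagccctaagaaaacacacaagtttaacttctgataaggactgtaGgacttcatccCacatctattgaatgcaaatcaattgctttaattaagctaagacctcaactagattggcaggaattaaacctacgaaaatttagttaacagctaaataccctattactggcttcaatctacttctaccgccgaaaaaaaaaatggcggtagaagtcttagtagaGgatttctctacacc
chr12:97061460-97061759: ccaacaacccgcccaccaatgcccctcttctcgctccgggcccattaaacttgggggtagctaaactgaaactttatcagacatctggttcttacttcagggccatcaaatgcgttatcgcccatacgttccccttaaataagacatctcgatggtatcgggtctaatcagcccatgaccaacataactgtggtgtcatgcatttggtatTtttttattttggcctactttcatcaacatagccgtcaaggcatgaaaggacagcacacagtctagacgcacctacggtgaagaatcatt
chr6:9889948-9890154: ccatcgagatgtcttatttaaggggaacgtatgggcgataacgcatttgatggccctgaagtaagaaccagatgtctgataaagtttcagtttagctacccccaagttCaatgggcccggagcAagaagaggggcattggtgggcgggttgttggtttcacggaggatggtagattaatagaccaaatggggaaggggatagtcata

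The next 5 are the peaks of highest fold that had no overlap in the other liver. The first pair was in the WT list only, and the other three were in the Uhrf1hepKO list only. Capitals mark CpG dinucleotides.
chr5:6182558-6182745: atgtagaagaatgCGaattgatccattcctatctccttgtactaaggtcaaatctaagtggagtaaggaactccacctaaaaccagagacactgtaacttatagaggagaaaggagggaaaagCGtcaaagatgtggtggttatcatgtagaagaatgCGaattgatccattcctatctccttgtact
chr4:114405763-114405884: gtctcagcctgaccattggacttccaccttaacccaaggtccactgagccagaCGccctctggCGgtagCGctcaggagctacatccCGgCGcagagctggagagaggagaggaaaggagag
chr6:44792943-44793170: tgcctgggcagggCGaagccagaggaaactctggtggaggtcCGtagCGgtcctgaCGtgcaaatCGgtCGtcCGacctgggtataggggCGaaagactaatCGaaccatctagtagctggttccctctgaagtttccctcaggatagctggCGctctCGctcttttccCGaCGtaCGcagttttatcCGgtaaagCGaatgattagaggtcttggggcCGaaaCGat
chr12:93312358-93312467: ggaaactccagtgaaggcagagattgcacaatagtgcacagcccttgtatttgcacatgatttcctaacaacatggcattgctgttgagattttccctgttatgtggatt
chr8:89571967-89572078: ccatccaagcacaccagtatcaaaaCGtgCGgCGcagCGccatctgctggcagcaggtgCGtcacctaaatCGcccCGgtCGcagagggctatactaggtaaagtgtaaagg

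The last pair stands for recurring sequence. The peak on chromosome 11 belongs to the largest group of similar in-span peaks, and its central 75-mer was found 2610 times on chromosomes 1 to 19, X and Y. The peak on chromosome 7 lies in a cluster of small nucleolar RNA genes, and its central 75-mer was found 19 times. Capitals again mark CpG dinucleotides.
chr11:25558101-25558210: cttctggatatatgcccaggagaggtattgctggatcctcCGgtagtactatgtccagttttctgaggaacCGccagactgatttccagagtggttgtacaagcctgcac
chr7:59778858-59779147: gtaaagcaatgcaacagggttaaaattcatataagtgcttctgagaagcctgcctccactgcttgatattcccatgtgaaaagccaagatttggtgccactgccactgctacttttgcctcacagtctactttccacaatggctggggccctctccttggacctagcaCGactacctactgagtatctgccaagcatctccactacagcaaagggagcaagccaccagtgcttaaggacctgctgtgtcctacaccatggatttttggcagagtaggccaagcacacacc

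The spans were long beside the usual distance between H2A.Z peaks. Their median length was 712 kb, with quartiles at 579 and 921 kb, while the median of all gaps was 5740 bp. The longest was 2633246 bp, 130 spans reached 1 Mb and 12 reached 2 Mb. The 3 spans just inside the limit measured 500707, 500787 and 501303 bp, and the 3 gaps just outside it measured 499998, 499810 and 499755 bp. The lists behind these values held 50665 WT and 46400 Uhrf1hepKO H2A.Z peaks and 10439 WT and 10636 Uhrf1hepKO ATACseq peaks on chromosomes 1 to 19. Sequencing depth is not given with the lists, so a site with too few reads cannot be told apart from a site without the signal. Peaks were few at a small set of hepatocyte marker genes. Of 8 hepatocyte marker genes (among them Alb, Apob and Hnf4a), 0 had a WT and 1 had a Uhrf1hepKO ATACseq peak at the TSS, which here means within 5 kb of it. An H2A.Z peak lay in this window at 1 of them in WT (Ttr) and at 0 in Uhrf1hepKO, while 3 of 8 markers of other tissues had one in each liver. The study's longer list of liver enriched genes differed from these 8. Of its 256 genes on chromosomes 1 to 19, 119 had a WT and 114 a Uhrf1hepKO H2A.Z peak in the window. An ATACseq peak lay there at 40 and 49 of them, all outside the spans. Over all protein-coding genes the ATACseq shares were 31.4% and 29.0%. Peaks of all 4 lists lay within 5 kb of the Uhrf1 TSS, so the lists do not check the deletion.

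Genes, CpGs and ATACseq peaks thinned out together as the gaps between H2A.Z peaks lengthened. In gaps under 10 kb there were 96.0 protein-coding TSSs per Mb, in gaps of 250 to 500 kb 3.63, and in the spans 3.46. The protein-coding TSSs per Mb of the spans were thus close to those of the next shorter class. For WT ATACseq peaks, placed by their centre, the density was 59.0 per Mb in gaps under 10 kb, 1.24 in gaps of 250 to 500 kb and 0.691 in the spans. For Uhrf1hepKO peaks these densities were 56.2, 1.50 and 0.917 per Mb. The ratio of Uhrf1hepKO to WT density rose from 0.952 through 1.09, 1.10 and 1.21 to 1.33 across the 5 classes, and was highest in the spans. Counted by any overlap, 67 WT and 140 Uhrf1hepKO in-span peaks had central sequence of 100 or more copies in the genome (described below). The other in-span peaks numbered 313 and 352, so much of the higher Uhrf1hepKO count in the spans was of high-copy sequence. The ratio was not recomputed by class without high-copy peaks.

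**Figure D1:**
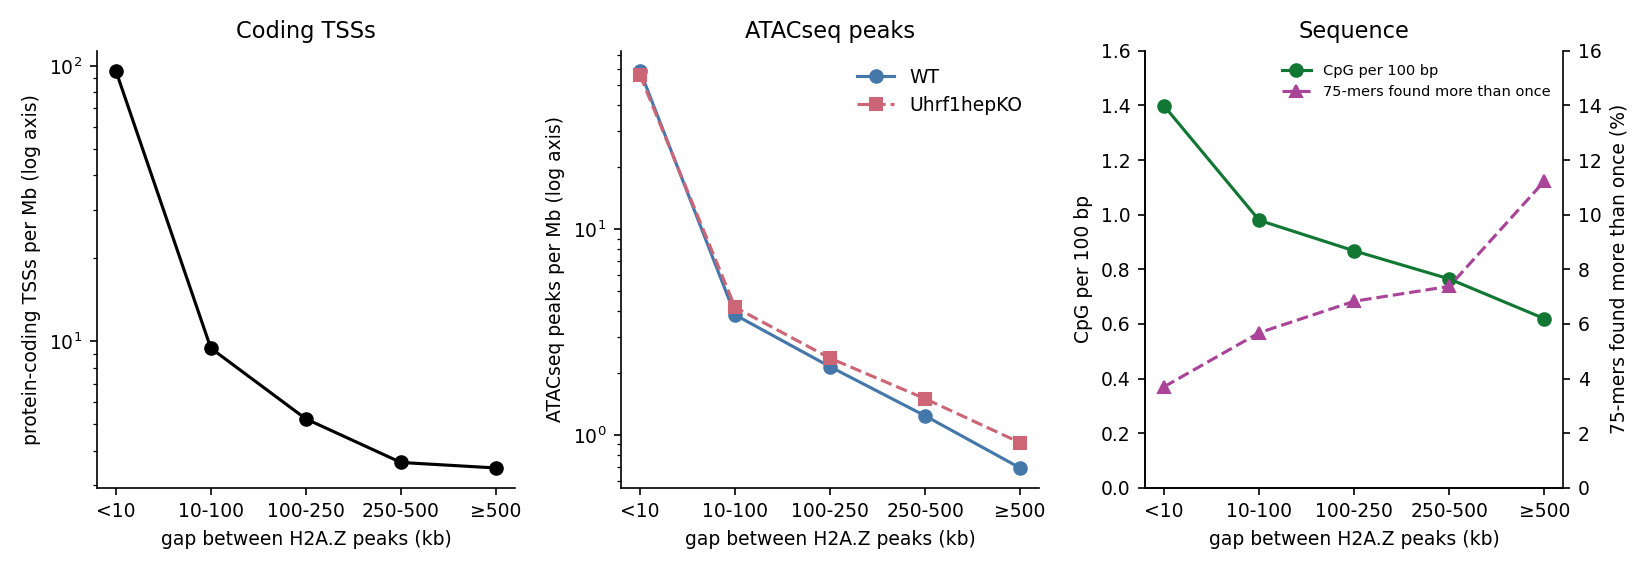
Gaps between pooled H2A.Z peaks in 5 classes of length (x axis, kb), with protein-coding TSSs per Mb (left, log axis), ATACseq peaks per Mb in each liver (middle, log axis), and CpGs per 100 bp with the share of 75-mers found more than once in the genome (right). The spans of 500 kb or more are the last point of each line, with 3.46 TSSs, 0.691 WT and 0.917 Uhrf1hepKO peaks per Mb, 0.619 CpGs per 100 bp and 11.2% recurring 75-mers.

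The sequence of the spans was poor in G and C and rich in repeats. GC content was 39.5% in the spans and 42.6% in the remainder of chromosomes 1 to 19, and CpGs numbered 0.619 and 0.915 per 100 bp. Lower-case bases, which mark repeats in the reference, made up 38.9% of the spans and 32.0% of the remainder. Of 75-mers sampled every 1 kb, 11.2% in the spans and 6.41% elsewhere were found more than once. The spans were far from alike in this respect. The share of recurring 75-mers had a median of 7.86% and ran from 0.174% to 91.6%, and 17 spans with a summed length of 22.1 Mb held 50% or more.

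The number of genes also varied widely. In 290 spans no protein-coding gene started, and 185 of these did not overlap such a gene at all. A further 300 spans held 1 to 9 protein-coding TSSs, 591 in all. The remaining 52 spans held 10 or more, and their 1219 TSSs lay in only 52.5 Mb. Recurring 75-mers made up 30.5% of these 52 spans, against 9.16% of the spans without a protein-coding TSS and 9.01% of those with 1 to 9. Another form of span was the inside of a very long gene: in 106 spans a single protein-coding gene covered more than 50% of the length, and 23 lay wholly inside such a gene.

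Protein-coding genes made up a smaller share inside the spans than the length did. Of 20807 protein-coding genes of chromosomes 1 to 19, 1810 (8.70%, interval 8.32 to 9.09%) had their TSS in the 21.2% of the length that the spans covered. They were short, with a median length of 6.71 kb against 18.9 kb elsewhere. Their promoters were poor in CpGs, with a median of 5 CpGs within 500 bp of the TSS against 47 elsewhere. A listed gene family held 990 of the 1810 genes.

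Receptors for smell, pheromones and taste were the largest group among these genes. Chemosensory receptors made up 734 of the 1810 genes (40.6%, interval 38.3 to 42.8%), and 48.8% of all 1505 chemosensory genes started in a span. Olfactory receptors, which detect odorants in the main olfactory epithelium, contributed 525 of 1128 genes in 21 spans. Their most populated span, chr2:88573143-89683288, held 52 of them, with Olfr1189, Olfr1191-ps1 and Olfr1192-ps1 the nearest its start, and no ATACseq peak of either liver. Of the vomeronasal type 1 receptors, which respond to pheromones, 125 of 208 started in 10 spans. The span chr7:19953061-22284949 held 37, among them Vmn1r91, Vmn1r93 and Vmn1r94, and 87.99% of its 75-mers recurred in the genome. Of the vomeronasal type 2 receptors 60 of 119 lay in spans, with 15, including Vmn2r65, Vmn2r66 and Vmn2r67, in chr7:84873570-87110824. Bitter taste receptors were in spans for 24 of 35 genes, 22 of them in chr6:131564208-133036268, where Tas2r130, Tas2r107 and Tas2r106 come first. The trace amine-associated receptors, also olfactory, were an exception, with 0 of 15 genes in a span.

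Immune receptor loci were divided between inside and outside. Immunoglobulin gene segments, which are joined in B cells to make antibodies, started in spans for 258 of 432, and T cell receptor segments for 124 of 270. The heavy chain span chr12:114379504-115794789 held 103 segments, among them Ighv6-3, Ighv6-4 and Ighv6-5. The alpha chain span chr14:52743632-53508433 held 81, among them Trav7d-3, Trav6d-4 and Trav7d-4, with 68.6% recurring 75-mers. Skint genes, which act in the selection of epidermal T cells, lay in spans for 10 of 11 genes, including Skint8, Skint7 and Skint1. Defensins, the antimicrobial peptides, did so for 12 of 64, with Defb33, Defa21 and Defa23 in chr8:20668871-21374660. None of the 26 killer cell lectin-like receptors, 20 type I interferons or 10 granzymes did so.

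Structural genes of skin and hair and secreted proteins of reproductive tissues followed the same division into clusters. Keratins, the intermediate filaments of epithelia, had 40 of 53 genes in 2 spans, with Krt80, Krt7 and Krt87 in chr15:101316174-101929501. Keratin-associated proteins of hair had 28 of 57, with Krtap3-3, Krtap3-2 and Krtap3-1 in chr11:99491191-100319478. In contrast, 0 of 36 cornified envelope genes lay in a span. Among reproductive families, secretoglobins had 22 of 34 genes in the single span chr7:31462598-33983131, which holds Scgb2b7, Scgb1b7 and Scgb1b10. Pramel and oogenesin genes, active in oocytes and early embryos, had 13 of 15, with Pramel4, Oog3 and Oog2 together. The prolactin family of placental hormones had 13 of 25, including Prl3d1, Prl3d2 and Prl3d3. Pregnancy-specific and carcinoembryonic glycoproteins had 15 of 28, including Psg18, Psg28 and Psg26. Speer genes had 3 of 10, with Speer1 in chr5:10791430-11583043. Among other receptors, 8 of 20 Mas-related receptors of sensory neurons (Mrgpra6, Mrgpra9 and Mrgpra1) and 3 of 7 formyl peptide receptors (Fpr-rs7, Fpr-rs6 and Fpr-rs3) lay in a span each.

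Families with a known role in the liver were mixed. Over 8 such families 34 of 260 genes (13.1%, interval 9.51 to 17.7%) started in spans. Each family was counted whole by gene symbol, so a member need not have a role in the liver itself. Sulfotransferases, which conjugate steroids and bile acids, had 10 of 21, with Sult2a5, Sult2a2 and Sult2a1 in chr7:13279587-14452756. Serpins, the protease inhibitors, had 13 of 60, with Serpinb12, Serpinb13 and Serpinb3a in chr1:106882355-107386667. Cytochrome P450 genes of families 2, 3 and 4, which oxidise drugs and steroids, had 9 of 78, with Cyp3a57, Cyp3a16 and Cyp3a41b in chr5:145317628-145834665. Organic anion transporters of the Slco family had 2 of 14, with Slco6d1 in chr1:98176948-99059472. Major urinary proteins (22 genes), UDP glucuronosyltransferases (21), Slc22 transporters (25) and carboxylesterases (19) had no gene in a span, although major urinary proteins also form a cluster.

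Neuronal families entered the spans mostly as single long genes. All 11 neural families had a member in a span, with 48 of 286 genes (16.8%, interval 12.9 to 21.5%). Contactins and their associated proteins, which hold axons and glia together, had 8 of 13 genes in 8 spans, with Cntnap5b in chr1:99059582-99882037. GABA receptor subunits, which form inhibitory chloride channels, had 6 of 16. Potassium channel genes had 13 of 92 in 11 spans, and Kcna5 and Kcna1 shared 1 of them. Glutamate receptors had 5 of 26 (Grik3), guidance genes 4 of 17 (Unc5c), classical and type II cadherins 4 of 23 (Cdh19), IgLON adhesion molecules 3 of 5 (Negr1) and leucine-rich repeat synaptic proteins 2 of 15 (Slitrk1). Neurexins and neuroligins had 1 of 5 (Nrxn3), teneurins and latrophilins 1 of 7 (Tenm4) and protocadherins 1 of 67 (Pcdh7). The 4 reference families, which are broadly expressed or developmental, had 7 of 583 genes (1.20%, interval 0.583 to 2.46%) in spans. These were 5 of 385 zinc finger genes, of which Zfp735 and Zfp616 shared a span, and 2 of 92 ribosomal protein genes, while 0 of 39 Hox genes and 0 of 67 histone genes lay in a span.

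**Figure D2:**
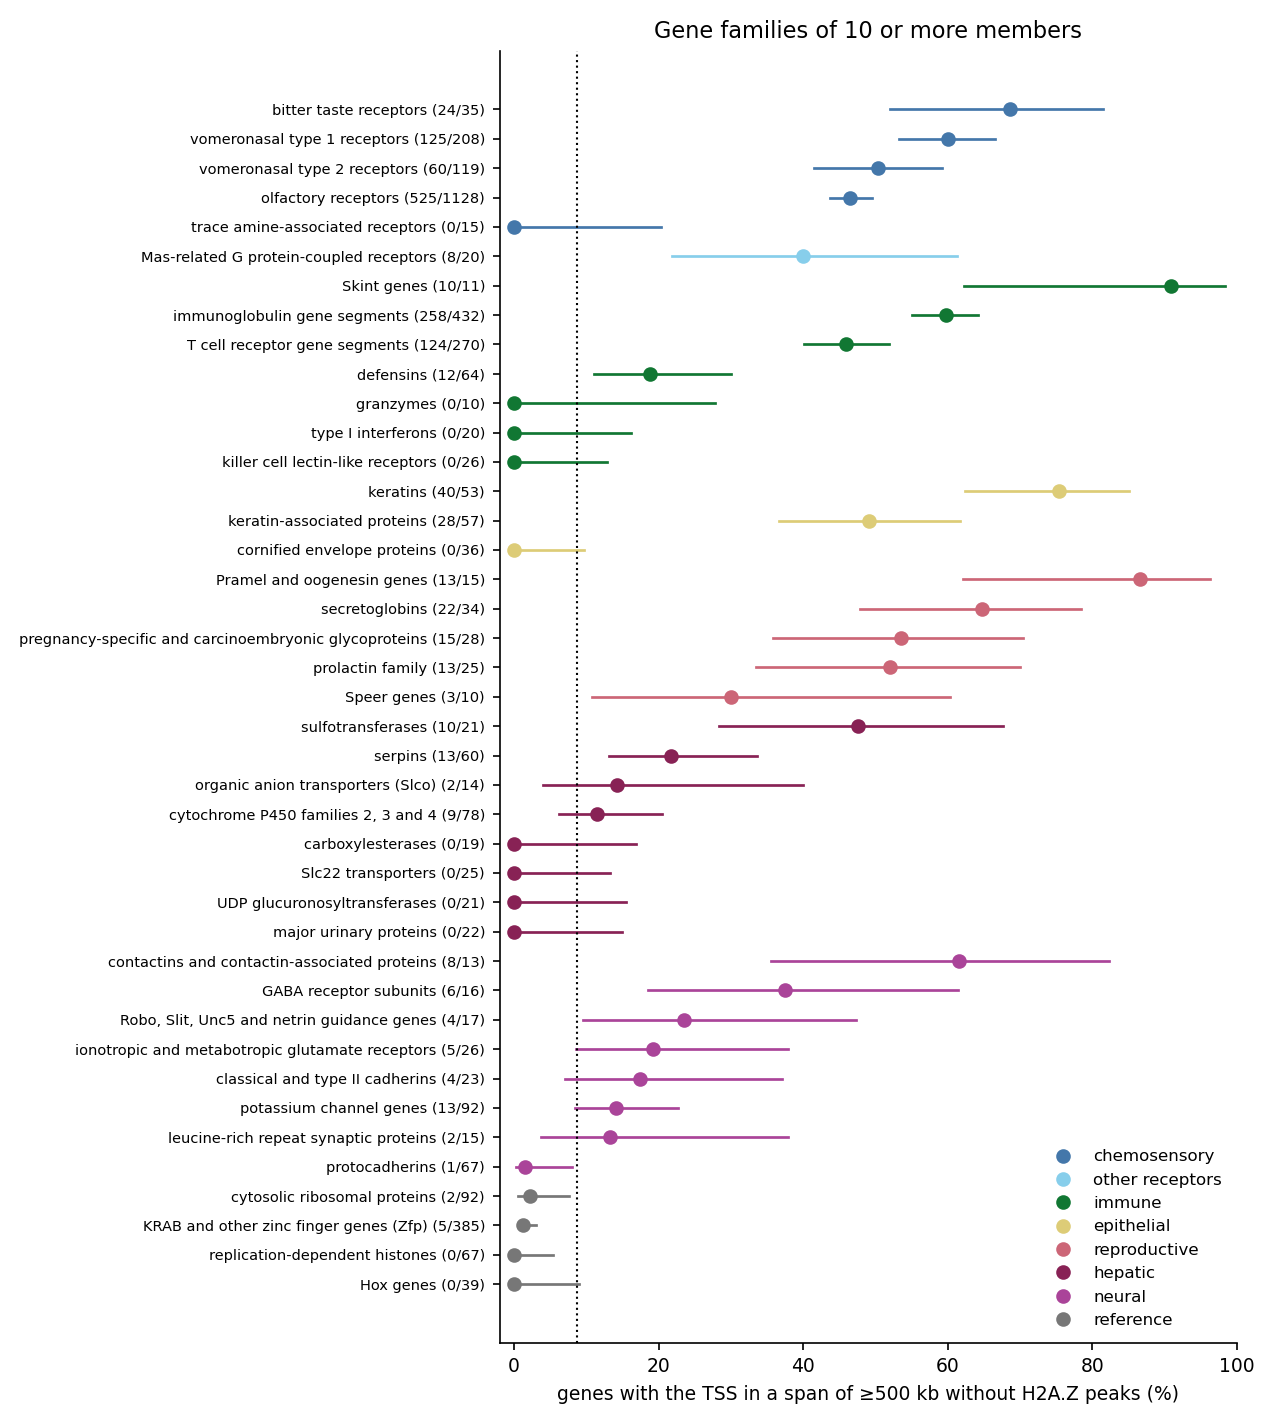
Share of each gene family of 10 or more genes whose TSS lay in a span (x axis, %), with Wilson 95% intervals as bars, the counts in brackets and the family group by colour. The dotted line is the share of all protein-coding genes, 8.70%, and families run from 0 of 39 Hox genes to 10 of 11 Skint genes.

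The 10 longest spans differed in content. Gene clusters filled the first 4. The longest, chr5:93323701-95956946, held 27 protein-coding TSSs, of which Gm16427 is the longest gene, and 76.1% of its 75-mers recurred. It was followed by the secretoglobin span, where Scgb2b24 is the longest gene, by the vomeronasal span with Nlrp9b, which is expressed in oocytes, and by chr7:84873570-87110824 with Vmn2r71. The next 3 had 1 protein-coding TSS each. These were chr4:50083724-52298703 with Cylc2, a protein of the sperm head, chr4:16648455-18796519 with the membrane metalloproteinase Mmp16, and chr8:15483539-17580358, of which Csmd1, a large membrane protein of neurons, covered 78.4%. The Cylc2 span, at 2.21 Mb, was the longest with no ATACseq peak in either liver. The last 3, chr13:86425672-88519992, chr5:59596264-61668960 and chr17:75642183-77679595, overlapped no protein-coding gene.

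Other kinds of annotated genes were unevenly shared. Over all types, 7116 of 51229 genes (13.9%) started in the spans. Unprocessed pseudogenes, the decayed copies of duplicated genes, did so for 694 of 1789 (38.8%), and processed pseudogenes, which are retrocopies, for 1839 of 8924 (20.6%). Small nucleolar RNAs did so for 418 of 1442 (29.0%), or for 208 of 1232 (16.9%) without the span that held the most of them. The count was 693 of 5209 for lincRNAs (13.3%). Transcripts that arise beside other genes were less often inside, at 170 of 2913 antisense genes (5.84%) and 3 of 190 bidirectional promoter lncRNAs (1.58%).

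Few genes of the spans were accessible at their TSS in either liver. In the WT liver 44 of the 1810 protein-coding genes (2.43%, interval 1.82 to 3.25%) had an ATACseq peak at the TSS, where the background over all protein-coding genes of these chromosomes was 31.4%. In the Uhrf1hepKO liver 51 did (2.82%, interval 2.15 to 3.69%), where the background was 29.0%. The intervals of the livers overlapped, and 25 genes were on both lists. For chemosensory genes the counts were 0 of 734 in WT (upper limit 0.521%) and 1 of 734 in Uhrf1hepKO, the olfactory receptor Olfr811. Chemosensory genes outside the spans were rarely accessible too, at 6 of 771 in each liver (0.778%, interval 0.357 to 1.69%). The remaining 1076 genes had a share of 4.09% in WT and 4.65% in Uhrf1hepKO.

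In each of 4 classes by the number of CpGs at the promoter, the share inside the spans was below the share outside in both livers. Among genes with 10 or fewer CpGs within 500 bp of the TSS, 1.08% of 1292 in-span genes and 7.47% of 3240 others had a WT peak. Among genes with over 60 CpGs the shares were 13.6% of 147 and 52.1% of 6872. For Uhrf1hepKO they were 0.851% and 7.81% in the lowest class, and 16.3% and 47.2% in the highest.

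Accessible genes were gathered at the ends of the spans, next to the bounding H2A.Z peaks. Of the 59 protein-coding TSSs within 5 kb of an end, 21 (35.6%, interval 24.6 to 48.3%) had a WT peak and 25 (42.4%, interval 30.6 to 55.1%) a Uhrf1hepKO peak. Of the 1751 TSSs farther in, 23 (1.31%) and 26 (1.48%) had one. The 5 kb window around these outer TSSs reaches past the end of a span, so a peak counted here can lie outside it. This split of the genes by distance was chosen after their values were seen. The density of peaks also fell, from 6.54 WT and 6.85 Uhrf1hepKO peaks per Mb in the outer 5 kb to 0.831 and 1.33 between 5 and 50 kb. Beyond 250 kb it was 0.556 and 0.660. Peaks that overlapped a span but were centred beyond its end were placed in the outer 5 kb, which raised the values there. By overlap the spans had 380 WT and 492 Uhrf1hepKO peaks, and by centre 361 and 479. The density of protein-coding TSSs fell from 9.19 to 3.50 per Mb over the first step and was 3.29 beyond 250 kb.

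**Figure D3:**
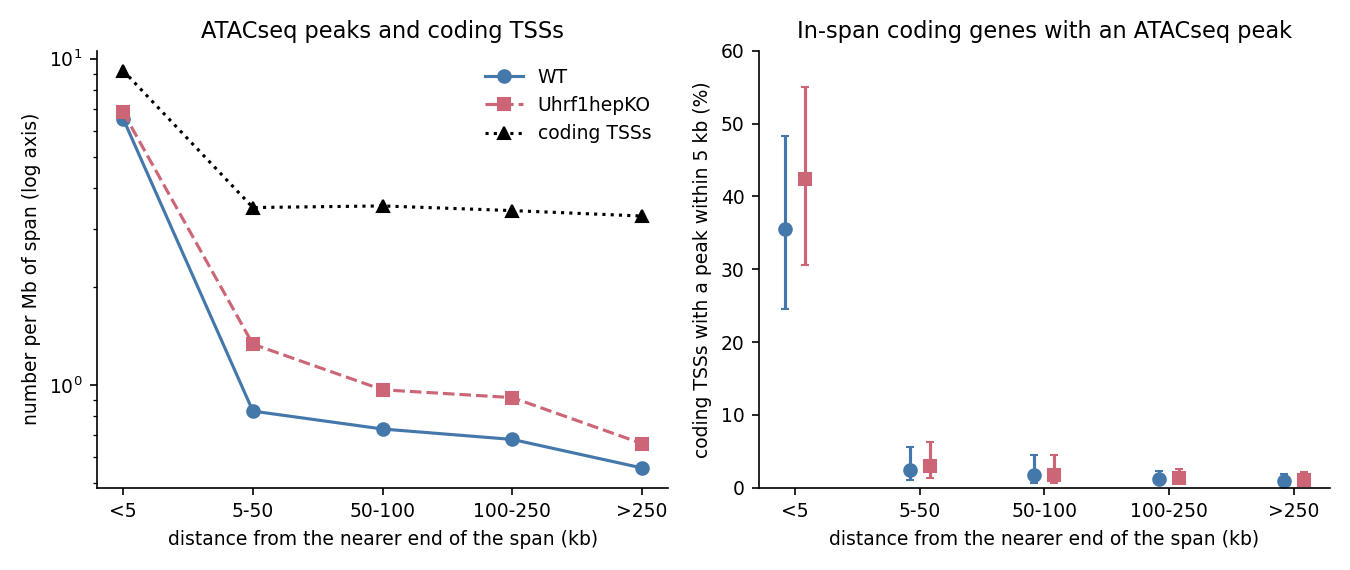
Distance from the nearer end of the span (x axes, kb), with WT and Uhrf1hepKO ATACseq peaks and protein-coding TSSs per Mb (left, log axis) and the share of in-span protein-coding TSSs with a peak within 5 kb (right, %, blue for WT and red for Uhrf1hepKO, bars Wilson 95% intervals). Of the TSSs within 5 kb of an end, 35.6% had a WT and 42.4% a Uhrf1hepKO peak, and in each class farther in the share was below 3%. Peaks that overlap a span but are centred beyond its end are in the first class on the left.

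Among the 20 genes of any type with the highest folds were several that started at the end of a span. Dnajb9, a chaperone partner of the endoplasmic reticulum, had its TSS 69 bp from an H2A.Z peak and a fold of 6.70 in WT and 6.21 in Uhrf1hepKO. Its peak also covered the TSS of Mir5627. G3bp1, a nucleator of stress granules, had folds of 5.67 and 6.13 and lay 538 bp from H2A.Z. Fh1, the fumarase of the citric acid cycle, had 5.97 and 5.28 at 177 bp. Rpl22, a protein of the large ribosomal subunit, had 5.74 and 4.73 at 124 bp. The genes 1810013L24Rik (5.87 and 5.21) and 1700010I14Rik (5.52 and 4.03), the pseudogenes Gm7393 (5.85 and 7.96), Gm7692 (6.21 and 4.38) and Gm6762 (5.99 and 4.84) and the snoRNA gene Gm25989 (5.16 and 6.69) were also within 5 kb of an H2A.Z peak and had a peak in both livers. The peaks at Gm7393, Gm7692, Gm6762 and Gm25989 lay outside the spans, though within the 5 kb window of the TSS. Folds of the 2 lists are not on a common scale, so they are set side by side only.

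Accessible genes far from H2A.Z were few. Over 5 kb from an end, 9 protein-coding genes had a peak in both livers. They included Kcnk9, a potassium leak channel, whose TSS was 263500 bp from the nearest H2A.Z peak. Its ATACseq peak had a fold of 4.69 in WT and 6.82 in Uhrf1hepKO, and lay 3107 and 3168 bp from the TSS. The others were Aacs, which activates acetoacetate for lipid synthesis, Cyp26b1, which breaks down retinoic acid, Slc25a36, a mitochondrial nucleotide carrier, Ephb1, an ephrin receptor, the neurodevelopmental gene Auts2, and AY761185, Gm10354 and Gm21663. Of the 9, only Aacs, Slc25a36 and Ephb1 had a peak within 500 bp of the TSS in both livers. The lincRNA AC147219.2, with its TSS 228490 bp from H2A.Z, had a peak of fold 7.21 and 5.89, at 4209 and 4229 bp from the TSS.

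Among the 20 genes with the highest folds, 3 were on the list of 1 liver only, and all 3 started within 5 kb of an H2A.Z peak. Trabd2b, which acts on Wnt proteins, had a WT peak of fold 6.19 at 901 bp upstream of its TSS, printed above as chr4:114405763-114405884, and the nearest Uhrf1hepKO peak was 241118 bp away. Its TSS was 1031 bp from H2A.Z. Krt4, a keratin of stratified epithelia, had a Uhrf1hepKO peak of fold 5.58, with the TSS 4767 bp from H2A.Z. Gm43951 had one of fold 6.19, with the TSS 141 bp from H2A.Z and the ATACseq peak outside the span.

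Liver enriched genes of the study's own list were in the spans about as often as all protein-coding genes, at 21 of 256 (8.20%, interval 5.43 to 12.2%). The paper drew its list from a human liver proteome dataset, and every entry on these chromosomes was counted. The 21 genes came from 7 spans. Of these genes, 0 had an ATACseq peak at the TSS in either liver, a count close to what the shares of 2.43% and 2.82% among all in-span protein-coding genes give for so few genes. Hao1, the glycolate oxidase of peroxisomes, lay at the end of its span with the TSS 147 bp from an H2A.Z peak. The other 20 were cluster genes: the sulfotransferases Sult2a1, Sult2a2, Sult2a4, Sult2a5, Sult2a6 and Sult2a8, the cytochromes Cyp3a16, Cyp3a41a, Cyp3a41b, Cyp3a44, Cyp3a57 and Cyp2a4, and the Pramel4, Gm13083, Gm13078, Gm13102, C87414, A430089I19Rik, AA792892 and Gm3259 genes. Pramel4 is of the Pramel and oogenesin family, described above as active in oocytes and early embryos. The 8.20% is thus a share of the list as given, whose members need not all have a role in the liver. The nearest H2A.Z peak was 28792 bp from the TSS of Cyp3a44, 453919 bp from that of Sult2a2 and 138003 bp from that of Cyp2a4, which hydroxylates steroids. Of the study's 569 cell proliferation genes 9 (1.58%, interval 0.834 to 2.98%) were in spans, each in a different one. Only Fancf, of the Fanconi anaemia core complex, had ATACseq peaks among them, of fold 4.87 in WT and 5.06 in Uhrf1hepKO, with its TSS 174 bp from H2A.Z.

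ATACseq peaks were sparse in the spans of both livers. The WT list had 380 peaks there (3.64%, interval 3.30 to 4.02%) and the Uhrf1hepKO list 492 (4.63%, interval 4.24 to 5.04%), counting any overlap. On each of the 19 chromosomes, and in both livers, the share of peaks inside was below the share of length. The peaks lay in 236 spans in WT and in 258 in Uhrf1hepKO. There were 167 spans with a peak in both livers, 69 in WT only, 91 in Uhrf1hepKO only and 315 in neither. Uhrf1hepKO had the higher count in 151 spans and WT in 100.

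Peaks of the spans were narrower, weaker and less often shared than those elsewhere. In the WT list the median fold was 3.82 inside and 4.33 outside, and the median width 184 and 234 bp. In the Uhrf1hepKO list the median fold was 3.60 and 4.08, and the median width 170 and 208 bp. Of the WT peaks in spans, 145 (38.2%, interval 33.4 to 43.1%) overlapped a peak of the other liver, where the background over the whole list was 61.3%. Of the Uhrf1hepKO peaks, 145 did so (29.5%, interval 25.6 to 33.6%), with a background of 60.2%. In addition, 4.74% of WT and 5.08% of Uhrf1hepKO peaks in spans came within 500 bp of a protein-coding TSS, against 47.0% and 42.4% elsewhere. CpGs numbered 2.44 and 2.02 per 100 bp under these peaks and 5.83 and 5.32 elsewhere. Median distance to the nearest H2A.Z peak was 151 kb in WT and 152 kb in Uhrf1hepKO.

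Motifs were counted in the central 200 bp of each peak on both strands. The core letters of the CTCF motif, CNAGNNGGC, were in 12.1% of WT and 11.2% of Uhrf1hepKO peaks of the spans and in 20.5% and 20.03% of peaks elsewhere. The CRE motif of CREB and ATF factors, TGACGTCA, was in 0.263% and 0.813% inside and in 2.47% and 2.66% elsewhere. Motifs of hepatocyte factors differed less. The CEBP letters TTGCNNAA were in 11.8% and 10.8% inside and 9.37% and 10.6% elsewhere, and the FOXA letters TGTTTAC in 2.63% and 3.46% inside and 2.71% and 2.71% elsewhere. The HNF4A letters CAAAGTCCA were in 0.526% and 0.813% inside and 0.706% and 0.641% elsewhere. The WT peak upstream of Trabd2b holds the CTCF core and the Uhrf1hepKO peak chr12:93312358-93312467 the CEBP letters. No rate of matches expected by chance was computed. GC content under the peaks was 51.4% in WT and 49.0% in Uhrf1hepKO inside, and 58.5% and 57.3% elsewhere. A match is a description of the letters and does not show binding.

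Many of the in-span Uhrf1hepKO peaks lay in high-copy sequence on 4 chromosomes. This grouping was chosen after the values were seen. A central 75-mer with 100 or more copies in the genome was found in 67 of 380 WT peaks (17.6%, interval 14.1 to 21.8%) and in 140 of 492 Uhrf1hepKO peaks (28.5%, interval 24.6 to 32.6%), against 1.26% and 2.72% of peaks elsewhere. Among in-span peaks found in 1 liver only, it was 51 of 235 in WT and 126 of 347 in Uhrf1hepKO. Chromosomes 1, 10, 11 and 12 carried 57 of the 67 WT and 136 of the 140 Uhrf1hepKO peaks of this kind, although they hold 22.5% of the span length and 18.2% and 20.2% of the other in-span peaks. These 4 are the first when chromosome names are sorted as text. Whether the order of the chromosomes had a part was not tested. Outside the spans the high-copy peaks lay on the same chromosomes, with 103 of 127 in WT (81.1%) and 241 of 276 in Uhrf1hepKO (87.3%). On chromosome 1 the spans held 37 WT and 85 Uhrf1hepKO peaks, and on chromosome 12 they held 27 and 53. Without these high-copy peaks, 3.06% of the WT list (interval 2.74 to 3.41%) and 3.44% of the Uhrf1hepKO list (interval 3.11 to 3.82%) lay in spans, so the intervals overlapped. On the other 15 chromosomes the shares were 3.32% and 3.58%, also with overlapping intervals. How the authors' aligner placed reads that match many copies is not given in the sources used here, and its part in the result was not tested.

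**Figure D4:**
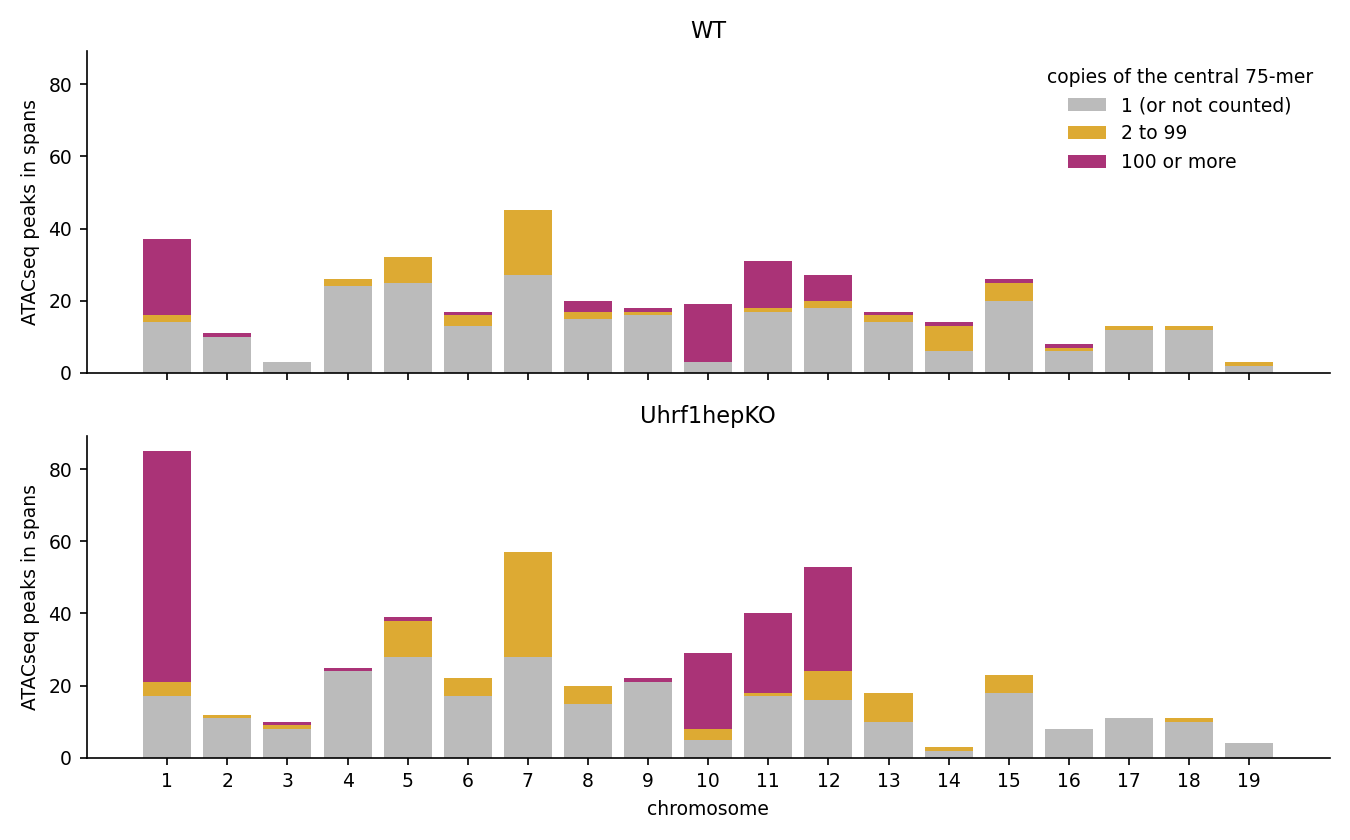
ATACseq peaks in the spans of each chromosome (x axis) in WT (top) and Uhrf1hepKO (bottom), stacked by how often the central 75-mer of the peak was found in the genome. Grey marks peaks whose 75-mer was found once or could not be counted. High-copy peaks stand out on chromosomes 1, 10, 11 and 12 in both livers, with 21 WT and 64 Uhrf1hepKO peaks on chromosome 1.

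Much of this sequence was of 1 kind. When in-span peaks of a list were grouped at 80% identity, the largest group had 38 WT peaks in 35 spans and 123 Uhrf1hepKO peaks in 81 spans. Of the 123, 111 had no overlap in WT, 116 were on the same 4 chromosomes, and the median copy number of the central 75-mer was 2728. The median share of lower-case bases in them was 100%. The printed peak chr11:25558101-25558210 is of this group, with a fold of 4.56. No annotation of repeats was used, so the repeat is not named.

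The 4 in-span peaks with the highest folds in each liver resembled mitochondrial or satellite DNA. Of the WT and of the Uhrf1hepKO in-span peaks, 6 each matched the mitochondrial genome over at least 50% of their length at 80% identity or more, against 4 and 5 of all the peaks outside. Nuclear copies of mitochondrial DNA are common in mammalian genomes. The peak chr12:97061432-97061787 was 99.7% identical to mitochondrial DNA and had folds of 22.6 and 23.9. The peak chr6:9889948-9890154 was 99.03% identical (22.4 and 22.0), and chr5:60042844-60043086, which matches the transfer RNA genes from TrnW to TrnC, was 98.4% identical (22.7 and 22.9). The peak chr4:80002767-80003245 matches ND5 at 93.9% identity (13.0 and 13.8) and lies beside the pseudogenes Gm11407, Gm11408 and Gm11410. At chr5:7276848-7277285, beside Gm43841, the match to CYTB was 84.2% identical (8.56 and 8.87). A long peak, chr2:22587569-22590187, was 98.1% identical but had folds of only 4.27 and 4.35. The highest in-span fold of both lists, 26.3 and 28.5, was at chr13:77438911-77439056, which was 97.3% identical to the major satellite array annotated as Gm26870 on chromosome 9. Under the same limits, 2 WT and 2 Uhrf1hepKO in-span peaks matched this array (0.526% and 0.407%). Elsewhere 34 and 36 did (0.338% and 0.355%), so such matches were not particular to the spans. The second in-span match, chr3:99981157-99981388, had folds of 6.78 and 6.30. A ribosomal RNA locus of chromosome 17 was matched by 2 WT and 2 Uhrf1hepKO in-span peaks, against 2 and 1 elsewhere. The share of reads in the peaks of these kinds that came from mitochondria, satellite arrays or other ribosomal RNA genes was not tested.

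The span with the most peaks was chr7:59228995-60004965, which lies in the imprinted domain around Snhg14, the long host transcript of brain snoRNAs. It held 210 snoRNA genes, 17 of them named Snord116, and no protein-coding TSS, and these were 210 of the 418 snoRNA genes in all spans. There were 16 WT peaks of fold 3.11 to 5.37 and 22 Uhrf1hepKO peaks of fold 2.95 to 4.94, and 14 and 15 of them were shared. The peaks lay within 157 kb of each other, and 13 WT and 18 Uhrf1hepKO peaks were within 500 bp of a snoRNA gene. Of the central 75-mers, 15 of 16 and 20 of 22 recurred, as in the printed peak chr7:59778858-59779147, so single repeats of the cluster cannot be told apart from each other.

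**Figure D5:**
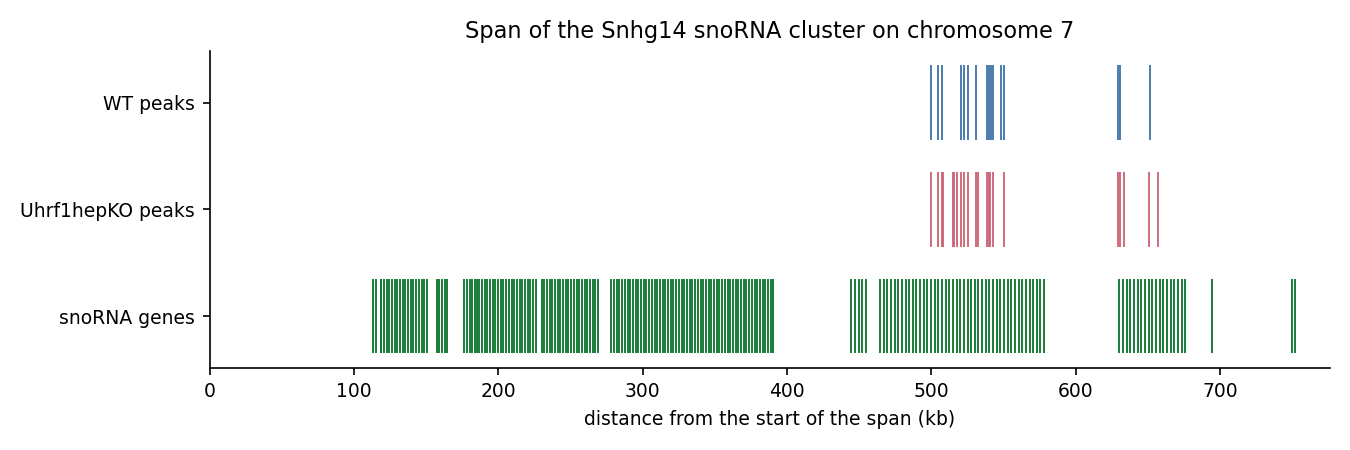
Positions of WT peaks, Uhrf1hepKO peaks and snoRNA genes along the span of the Snhg14 snoRNA cluster (x axis, distance from the start of the span in kb). The 16 WT and 22 Uhrf1hepKO peaks lie in the right-hand part, among the later snoRNA genes.

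The next most populated spans also held recurring sequence. The defensin span chr8:20668871-21374660, with 54.5% recurring 75-mers, had 7 WT and 9 Uhrf1hepKO peaks, of which 5 were shared. In chr5:14896255-15507015, where 64.7% of the bases are an assembly gap, there were 7 and 5 peaks and 0 were shared. In chr13:65718172-66904602 there were 4 and 7, again with 0 shared, and in chr6:114012857-114639813 there were 5 and 5, with 1 shared.

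The H2A.Z peaks that bound the spans are given as a description, since they chose them. The 617 WT peaks at the ends of spans had a median fold of 4.39 against 5.12 for all others, and 32.4% of them overlapped a Uhrf1hepKO H2A.Z peak against 70.5%. The 623 Uhrf1hepKO peaks had a median fold of 4.42 against 5.35, with an overlap of 35.6% against 76.2%. A protein-coding TSS lay within 5 kb of 16.4% of the WT and 14.9% of the Uhrf1hepKO bounding peaks, and of 43.5% and 43.7% of the others.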

How the data were processed

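Per the methods and labels, the authors trimmed the reads, aligned them to GRCm38.p4 with BWA-MEM, processed them with Picard (deduplication is given for ChIPseq) and called the peaks of every library separately with MACS2 at a p-value of 0.05. FastQC 0.11.5 is among the submitters' tools. Treatment of multi-mapping reads, the MACS2 version and a control library are not given in the sources used here. The deposited lists hold for each peak a display score, a fold enrichment (a ratio to the local background of that library) and the −log10 p-value and q-value, and for H2A.Z the authors' lists also hold the summit position. The score and the summit were not used. The q-values reached 0.0997 in the WT and 0.0993 in the Uhrf1hepKO ATACseq list, and 0.0500 and 0.0489 in the H2A.Z lists. Read numbers are not part of the lists, the study's summary of its sequencing was not used here, and values are not scaled between libraries.

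Genes and TSSs were from GENCODE vM21, and sequence was from the RefSeq copy of GRCm38. Overlaps needed 1 bp, and peaks at a TSS lay within 5 kb of it, inside the span or beyond its end. A span in which 1 peak was nested in another was counted by the end of the longer peak; by neighbours in start order there were 643. Families were defined by gene symbols or gene type. Exact copies of 75-mers were counted over chromosomes 1 to 19, X and Y in either orientation. Peaks were compared with the mitochondrial genome, a ribosomal RNA locus of chromosome 17 and a satellite array with blastn 2.17.0. Shares have Wilson 95% intervals and no test was made. Named genes were the 20 with the highest fold of a peak at the TSS, the study's liver enriched genes, the longest gene of the 10 longest spans and up to 3 members per family, and the members of 1 family are not reported here. Fancf, Olfr811 and the genes with peaks in both livers over 5 kb from an end fall outside this rule, other than Kcnk9, and were named after their values were seen. Single peaks were the 5 shared ones with the highest lower fold and the 3 highest found in each liver alone, and those on chromosome 18 are not reported here. The spans, lists and rules were chosen with earlier results of these data known. The alternatives varied the H2A.Z lists, the minimum length, assembly gaps, gene and TSS rules and ATACseq peaks. The steps were tested on simulated data. The scripts ran under Python 3.11.15 with numba 0.67.0, pandas 2.3.3, numpy 2.4.6, matplotlib 3.10.9 and scipy 1.17.1.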

Additional observations from a re-analysis of the deposited data

How the results depend on the processing

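The 8 results were recomputed under 15 settings, 4 of them chosen after seeing the data. This gave 68 alternatives, of which 56 moved by more than the counting interval (or, for the number of spans, by over 1.5 times) and 12 did not. The order of the shares was steadier than their size. In 7 of 7 settings with a share of length, the shares of protein-coding genes and of ATACseq peaks of both livers were below it, and in 12 of 12 settings the Uhrf1hepKO list had the higher share of its peaks in spans. The settings reuse the same ATACseq lists, from 1 library per genotype, so they are not independent. In some the intervals of the livers overlapped. They were 2.41 to 3.06% (WT) and 2.59 to 3.28% (Uhrf1hepKO) without recurring peaks. With ATACseq peaks of at least the median fold they were 1.75 to 2.53% and 1.94 to 2.75%. Span length changes by construction when the spans are redrawn. The shares of genes and of ATACseq peaks in spans also moved under settings that left the spans as they were. The cause of the moves was not tested.

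Values are given in the order share of length, share of protein-coding genes, share of WT and of Uhrf1hepKO ATACseq peaks, chemosensory share of in-span genes, and share of in-span genes with a WT and a Uhrf1hepKO peak at the TSS. With the WT H2A.Z list alone the first 5 were 27.9%, 11.1%, 5.04%, 6.44% and 37.9%. With the Uhrf1hepKO list alone they were 27.9%, 11.5%, 5.47%, 6.64%, 34.4%, 3.73% and 4.02%. With H2A.Z peaks at or above the median fold they were 39.1%, 15.9%, 9.22%, 10.8%, 31.8%, 5.32% and 5.26%, and the order of the livers in the last pair turned. A minimum of 1 Mb left 130 spans, with 7.17%, 2.93%, 0.900%, 1.33%, 44.3%, 1.31% and 2.13%. A minimum of 250 kb gave 1974 spans, with 39.6%, 16.6%, 9.31%, 11.3%, 28.1%, 4.35% and 4.52%. Without spans of over 5% assembly gap the first 4 were 20.9%, 8.31%, 3.23% and 4.20%. Counting whole genes inside gave 8.07% of genes and a chemosensory share of 43.5%, and counting every annotated gene gave 13.9% and 10.3%. With only the ATACseq peaks of at least the median fold, 2.11% and 2.31% of peaks were in spans, and 1.10% and 1.27% of in-span genes had one. A TSS window of 500 bp gave 1.05% and 1.55%.

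Of the settings chosen after seeing the data, leaving out peaks of 100 or more copies gave 3.06% and 3.44% of peaks in spans, and leaving out recurring peaks 2.72% and 2.92%. Without chromosomes 1, 10, 11 and 12 the Uhrf1hepKO share was 3.58%. Without TSSs within 5 kb of an H2A.Z peak, 1.31% and 1.48% of in-span genes had a peak.

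No paired analysis was possible because each genotype has 1 library per assay and no result comes from a test. Spread between mice is unknown, and read numbers are not part of the lists, so the smallest difference that they can show is unknown too. Recurring sequence limits where a read can be placed, in the H2A.Z lists as in the ATACseq lists.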
